A study of Mus musculus with 4 samples.

Results

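Blood Ly6Chi and Ly6Clo monocytes of RBP-J-deficient mice were compared with each other, to describe which subset differences were present in cells that lack RBP-J. The comparison used 2 of the 4 RNA-seq libraries of the study, 1 of Ly6Clo and 1 of Ly6Chi monocytes, and all 23995 gene symbols of the deposited table. The deficient genotype was *Rbpj*fl/fl *Lyz2*cre/cre. The remaining 2 libraries, Ly6Clo and Ly6Chi monocytes of control mice, served only for comparison, and their genotype was *Rbpj*+/+ *Lyz2*cre/cre. The controls carry the label WT in their titles and Lyz2-Cre as their genotype, so Lyz2-Cre, a driver active in myeloid cells, was shared by all 4 groups and the floxed *Rbpj* alleles were not. The mice were untreated as far as the labels say and matched for age and gender per the methods. Cells were sorted by flow cytometry from blood, and whether blood of several mice was pooled is not stated. Each group was a single library, so no difference below has a replicate check, and no test was possible. Expression was taken as FPKM (sequenced fragments of a gene divided by its transcript length and by the library's mapped fragments, so a level per length), and a subset difference as the log2 ratio of (FPKM + 1), Ly6Chi over Ly6Clo, which understates the difference of genes with low values. A positive ratio means a higher level in Ly6Chi monocytes. Depth is unknown, because the table holds no read counts.

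Mouse blood monocytes fall into a classical Ly6Chi subset, which expresses the chemokine receptor CCR2 and enters inflamed tissue, and a nonclassical Ly6Clo subset, which patrols the vessel wall. Ly6Chi cells can convert into Ly6Clo cells, and the nuclear receptor NR4A1 is needed for the Ly6Clo subset. RBP-J is the DNA-binding factor through which Notch receptors act on their target genes. When a Notch receptor is cleaved after binding a ligand, its intracellular part joins RBP-J and turns a repressor complex into an activator.

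The deleted gene was examined first. *Rbpj* had an FPKM of 2.43 in Ly6Clo and 2.85 in Ly6Chi monocytes of RBP-J-deficient mice, against 8.30 and 14.4 in the corresponding control libraries. Both deficient libraries were thus below both control libraries, and the deficient subsets differed by a log2 ratio of only 0.17. *Lyz2*, the lysozyme gene into which Cre is inserted, had 134 in Ly6Clo and 102 in Ly6Chi monocytes of deficient mice and 52.0 and 84.8 in those of controls. The labelled cell type was then checked with 4 marker genes, *Ly6c2*, *Ccr2*, *Nr4a1* and *Ace*. *Ly6c2*, which encodes the Ly6C antigen used for the sort, had an FPKM of 78.3 in Ly6Clo and 1594 in Ly6Chi monocytes of deficient mice, a log2 ratio of 4.33. The direction followed the labels, and in controls the gap was wider, with 10.9 and 2013 and a ratio of 7.40. *Ccr2* had 474 in Ly6Clo and 624 in Ly6Chi monocytes of deficient mice, a ratio of 0.40, whereas in controls it had 59.2 and 712, a ratio of 3.57. It thus marked the Ly6Chi library of the control pair clearly and that of the deficient pair hardly.

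The other 2 markers did not follow the labels, *Nr4a1* by more than 2-fold and *Ace* only within 2-fold. *Nr4a1* had an FPKM of 65.6 in Ly6Clo and 182 in Ly6Chi monocytes of deficient mice, a ratio of 1.46, and 618 and 214 in controls, a ratio of -1.53. The study also measured NR4A1 protein by flow cytometry and its RNA by quantitative PCR in several mice. It reports similar levels for Ly6Clo monocytes of both genotypes, unlike the single libraries here. *Ace*, which encodes angiotensin-converting enzyme, had 17.7 and 24.7 in deficient mice, a ratio of 0.46, and 109 and 26.4 in controls, a ratio of -2.00. In both genes the control Ly6Clo library stood apart as the highest, and the deficient Ly6Clo library was the lowest of the 4. Accordingly, 2 of the 4 markers did not set the deficient libraries in the order that their names imply, and Ly6Clo and Ly6Chi are used below as the labels of the libraries. In the mm10 positions of the deposited table *Ly6c2* and *Nr4a1* lie on chromosome 15 (75108161 to 75111949 and 101266846 to 101274794), *Ccr2* on chromosome 9 (124102183 to 124109140) and *Ace* on chromosome 11 (105965607 to 105989964). In whole-library RNA, fewer cells of a type and less RNA per cell cannot be told apart.

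The 2 deficient libraries had FPKM sums of 885652 (Ly6Clo) and 763721 (Ly6Chi), and 8985 and 9258 genes at an FPKM of at least 1. Both sums were above those of the controls, which were 717356 and 711510. GC-rich genes tended to have higher ratios in the deficient pair, with a Spearman rho of 0.331 across 5935 genes against 0.180 across 6121 genes in controls. These are correlations across genes, which are not independent replicates. In the 20% of genes with the lowest GC content the median ratio of the deficient pair was -0.38, and in the 20% with the highest it was 0.30. Values after subtraction of this trend are given beside several results that it moved, and the part of GC content in the results was not tested. The ratio of *Ace* in deficient mice, 0.46, was 0.18 after that subtraction.

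A total of 9730 genes had an FPKM of at least 1 in either deficient library and an estimate that had not failed. Their median ratio was -0.03, and the middle 90% of them lay between -1.26 and 1.42. At the fold thresholds of the study's methods, 5.7 or more and 0.2 or less on (FPKM + 1), 61 genes (0.627%) were higher and 44 genes (0.452%) lower in Ly6Chi than in Ly6Clo monocytes. In controls 102 genes (1.04%) were higher and 88 (0.894%) lower, out of 9838. At 2-fold the order was the opposite, with 1083 higher (11.1%) and 860 lower (8.84%) in deficient mice and 794 (8.07%) and 533 (5.42%) in controls. The interquartile range of the ratios was 1.001 in deficient and 0.736 in control mice. At these settings the deficient subsets thus held fewer very large differences and more moderate ones than the control subsets, without a replicate to show how much either count varies. With a pseudocount of 0.1 in place of 1 the order at the fold thresholds turned, with 327 higher and 194 lower genes in deficient mice against 284 and 197 in controls. Of the 61 higher genes, 8 were small RNA genes by symbol and 11 were listed at 0 in Ly6Clo. Of the 44 lower genes, 2 were small RNA genes and 8 were listed at 0 in Ly6Chi. Rescaling each library to TPM shifted the median ratio of the deficient pair by 0.19 and gave 92 higher and 36 lower genes, so that 71.9% of the calls were higher instead of 58.1%. At 2-fold the share went from 55.7% to 70.9%.

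Of the 15 genes with the highest ratios in deficient monocytes, 9 belong to the classical marker list described below and 6 do not. *F13a1*, which encodes the A subunit of coagulation factor XIII, led with an FPKM of 10.7 in Ly6Clo and 283 in Ly6Chi monocytes, a ratio of 4.60. Next to *Ly6c2* stood *Mmp8*, a secreted collagenase, with 7.62 and 155 and a ratio of 4.17. *Ly6c1*, a near-identical neighbour of *Ly6c2* with which it may share reads, had 4.76 and 89.6. All of these were present in both libraries and more than 15 times higher, on (FPKM + 1), in the Ly6Chi one. *Chil3*, a chitinase-like protein, had 79.9 and 1257, a ratio of 3.96. *Fn1*, which encodes fibronectin, had 3.66 and 69.7, a ratio of 3.92. *Cd177*, a surface glycoprotein best known from neutrophils, had 6.04 and 103, a ratio of 3.89. A further 7 of the 15 had ratios between 3.20 and 3.69, namely *Smim5*, the tryptophan-pathway enzyme gene *Kmo*, the potassium channel subunit *Kcne3*, the chemokine receptor *Ccr1*, the acute phase gene *Saa3*, the matrix protein gene *Tgfbi* and the transcription factor gene *Tfec*. All 15 genes were also at least 2-fold higher in Ly6Chi monocytes of controls, where their ratios lay between 2.58 and 8.22.

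The genes with the lowest ratios, which were higher in Ly6Clo monocytes, were more mixed. *Mrps6*, a mitochondrial ribosomal protein gene, had an FPKM of 16.1 in Ly6Clo and 0.379 in Ly6Chi monocytes of deficient mice, a ratio of -3.63, and 9.31 and 5.63 in controls. *Marf1*, a meiosis regulator, had 50.7 and 3.68, a ratio of -3.46, against 5.50 and 2.90 in controls. For both genes the deficient Ly6Clo library was the highest of the 4, and the control subsets lay within 2-fold of each other. *Jag1*, which encodes a Notch ligand, had 20.7 and 1.07, a ratio of -3.39, and in controls 5.64 and 0.555, a ratio of -2.09. *Jag1* was thus a gene of the Ly6Clo libraries in both genotypes. *Clec4b1*, a C-type lectin receptor, had 412 and 40.2, a ratio of -3.32, against 63.0 and 32.7 in controls. *Slamf9*, a receptor of the SLAM family, had 306 and 31.2, a ratio of -3.26, against 113 and 7.77 in controls. *Cd300e*, an activating receptor of nonclassical monocytes, had 564 and 61.9, a ratio of -3.17, and in controls 987 and 12.5, a ratio of -6.19. *Pecam1*, which encodes the adhesion molecule CD31, had nearly the same levels in both genotypes, with 55.1 and 6.10 in deficient mice and 54.1 and 4.26 in controls. *Cd83*, a regulator of MHC class II at the cell surface, had 348 and 43.4, a ratio of -2.98, against 337 and 13.5 in controls. The scavenger receptor gene *Cd36* had 945 and 137, a ratio of -2.77, against 426 and 26.9. Of the 15 genes, 8 were at least 2-fold lower in Ly6Chi monocytes of controls as well, and 1, *H2-Q8*, was at least 2-fold higher. *H2-Q8* had 10.7 in Ly6Clo and 0.00377 in Ly6Chi monocytes of deficient mice, and 0.00186 and 2.58 in controls. It belongs to a family of near-identical MHC class I genes, so reads may be split between its members. The joint symbol *H2-Q6,H2-Q8*, a second entry that holds this gene, had a ratio of only 0.37 in deficient mice. The others of the 15 were *Npm3*, *Itm2a*, *Btg3*, *5430437J10Rik* and the joint symbol *Gm17757,Gm18853*.

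**Figure D1:**
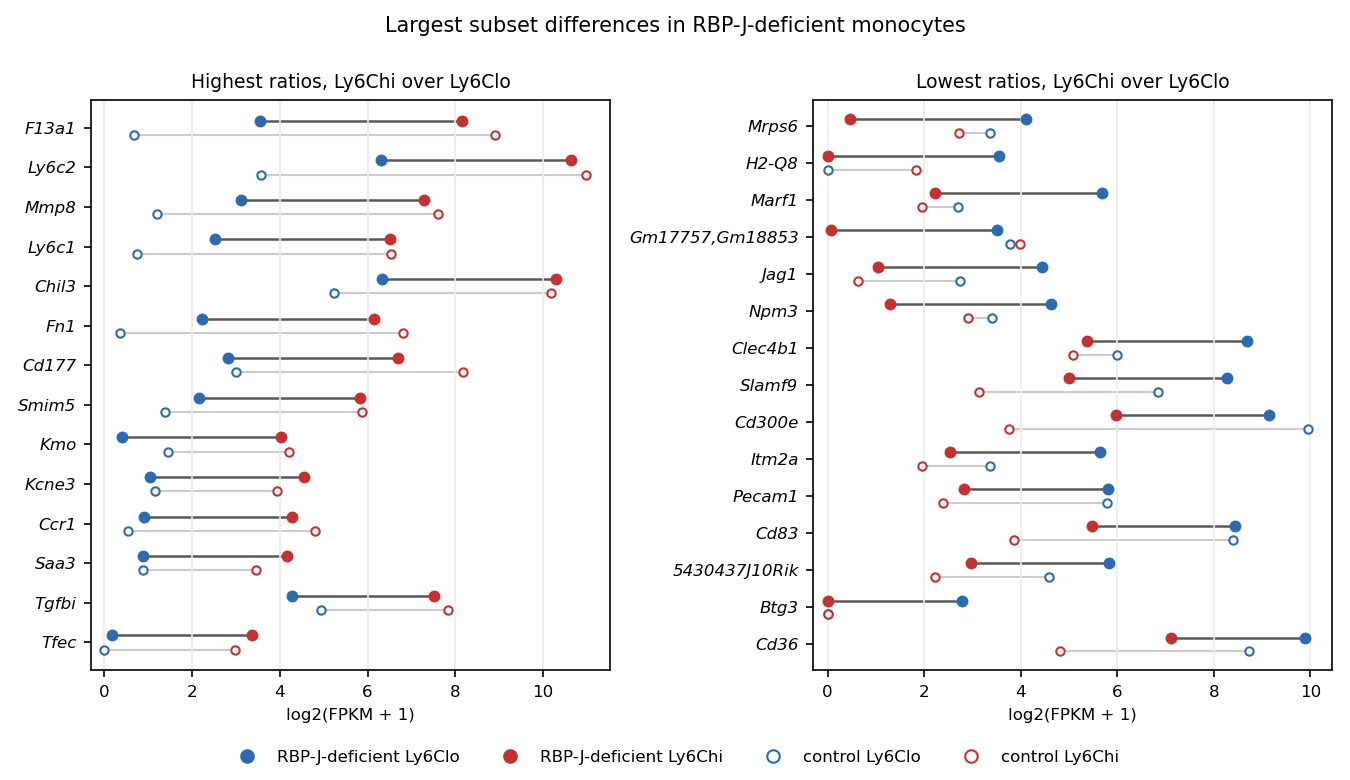
Levels, as log2(FPKM + 1), of 14 of the 15 genes with the highest (left) and the 15 with the lowest (right) ratios of Ly6Chi over Ly6Clo in RBP-J-deficient monocytes. Filled points are deficient and open points control libraries, 1 library per point, blue for Ly6Clo and red for Ly6Chi, and a line joins the libraries of a genotype. On the left all 14 pairs point the same way in both genotypes, while on the right the control pairs of *Mrps6*, *Npm3* and *Marf1* lie close together.

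Next, lists of marker genes of each subset were compared. These lists were chosen with earlier results of these libraries known, and a count here is a description. The counts of this and of all later lists are to be read beside the shares over all genes. Those were 11.1% at least 2-fold higher and 8.84% lower in deficient mice, and 8.07% and 5.42% in controls. A list whose share lies near these does not stand out from genes in general. The 22 classical markers were all at an FPKM of at least 1, and 13 of them were at least 2-fold higher in Ly6Chi monocytes of deficient mice, 3 at least 2-fold lower and 6 within 2-fold. Their median ratio was 2.31, against -0.03 over all genes and 3.50 for the same list in controls. It was 1.05 among the markers with an FPKM of at least 1 in both deficient libraries. Among the 6 within 2-fold were *Ccr2*, the scavenger of haemoglobin *Hp*, with 818 and 1004, the LPS co-receptor *Cd14*, with 148 and 176, and the high-affinity IgG receptor *Fcgr1*, with 27.1 and 40.2. In controls these 4 genes had ratios between 1.36 and 3.57. *Mgst1*, a glutathione transferase, had 855 and 1321, a ratio of 0.63. The list thus held markers with a large ratio in deficient mice, *F13a1*, *Ly6c2*, *Mmp8*, *Fn1*, *Vcan* and *Ccr1* among them, and others with nearly equal levels in both deficient libraries. *Clec4e*, *Clec4d* and *Gda* were higher in Ly6Clo. *Clec4e*, the receptor Mincle, had 313 in Ly6Clo and 83.8 in Ly6Chi monocytes, a ratio of -1.89. Its neighbour *Clec4d* had 67.6 and 25.3, a ratio of -1.39, and in controls 9.55 and 22.6, a ratio of 1.16. Subtraction of the GC trend took the ratio of *Clec4d* to -1.002, at the 2-fold limit. In all 22 classical markers the ratio was smaller in deficient than in control mice, and in 21 after subtraction of the GC trend. Over all 10236 genes with an estimate in both genotypes it was smaller in 53.7%. That share is no yardstick for markers with large ratios in controls. Of the 102 genes past the upper threshold in controls, 93 had a smaller difference in deficient mice.

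Of the 22 nonclassical markers 21 were found, all of them at an FPKM of at least 1. In deficient mice 11 of the 21 were at least 2-fold lower in Ly6Chi than in Ly6Clo monocytes, 1 was at least 2-fold higher and 9 were within 2-fold. The median ratio was -1.04, against -2.66 in controls, where 19 of the 21 were at least 2-fold lower. Besides *Cd300e* and *Cd36*, the large differences were those of the lipid-activated nuclear receptor *Pparg*, with 373 in Ly6Clo and 54.3 in Ly6Chi monocytes, and of the Fc receptor *Fcgr4*, with 807 and 176. Their ratios were -2.76 and -2.19. *Pglyrp1*, a peptidoglycan recognition protein, had 2192 and 598, and *Apoc2*, an apolipoprotein, had 3288 and 1257. For *Pglyrp1*, *Apoc2*, *Cd36* and *Pparg* the deficient Ly6Clo library was the highest of the 4 libraries. *Treml4*, with 513 and 316, and *Eno3*, a muscle-type enolase with 410 and 217, stayed within 2-fold, and in controls their ratios were -2.71 and -3.29. *Itgax*, which encodes CD11c, had 3.10 in Ly6Clo and 1.45 in Ly6Chi monocytes of deficient mice, both of them below the 33.7 and 3.36 of controls. *Cx3cr1*, the fractalkine receptor often used to tell the subsets apart, had 81.2 and 60.3, a ratio of -0.42, and in controls 88.1 and 71.7, a ratio of -0.29. It hardly separated the libraries of either genotype. In 19 of the 21 markers the ratio was closer to Ly6Chi in deficient than in control mice, the exceptions being *Cebpb* and *Cx3cr1*. The same held for 4739 of all 10236 genes. Of the 88 genes past the lower threshold in controls, 86 had a smaller difference in deficient mice.

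**Figure D2:**
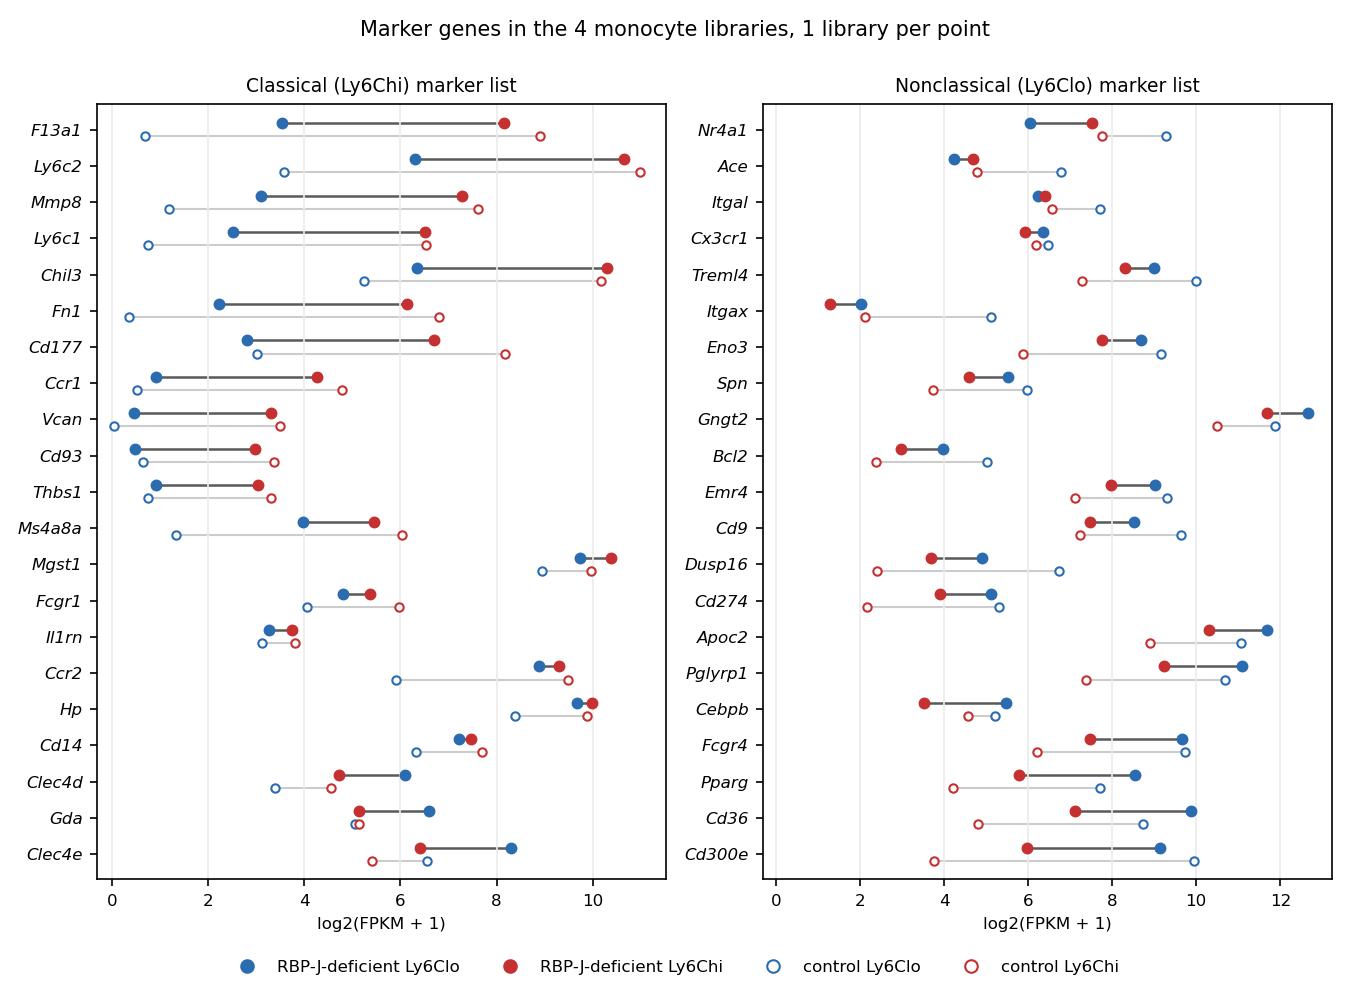
Levels, as log2(FPKM + 1), of 21 of the 22 classical and the 21 nonclassical markers, each list ordered by the ratio in the deficient pair, with colours and points as for the top genes. For classical markers the filled blue points lie mostly to the right of the open blue ones, and for *Nr4a1*, *Ace* and *Itgal* the filled red points lie at or to the right of the filled blue ones.

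The subset differences of deficient and control monocytes were then set side by side. The 4 libraries are distinct, so the genotypes share no sample. Across 10236 genes the ratios of the genotypes had a Pearson correlation of 0.539 and a Spearman correlation of 0.516, given as a description, and 67.8% of the genes had the same sign. At the fold thresholds, 33 genes were higher in both genotypes, which is 54.1% of the 61 of deficient and 32.4% of the 102 of control mice. A total of 18 were lower in both, which is 40.9% of the 44 and 20.5% of the 88. Of the 102 genes higher in control Ly6Chi monocytes, 97 were also higher in deficient mice and 93 had a smaller difference. Their median ratio was 3.08 in controls and 2.13 in deficient mice. Of the 88 genes lower in controls, 76 were also lower in deficient mice and 86 had a smaller difference, with medians of -2.95 and -1.33. Genes chosen for a large difference in one pair of single libraries tend to differ less in another pair. Chosen the other way, 36 of the 61 and 28 of the 44 genes of deficient mice had a smaller difference in controls, or 59.0% and 63.6% against 91.2% and 97.7%. At 2-fold this gap was small or absent, with 76.3% and 84.2% against 80.9% and 83.5%. Over all 10236 genes the difference was smaller in deficient mice in 41.9%. Of the genes past the thresholds in controls, 15 of the 102 and 32 of the 88 were within 2-fold in deficient mice. The differences between the genotypes were not tested.

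Among genes above 0 in all 4 libraries and at an FPKM of at least 10 in 1 or more, the ratio of deficient mice lay furthest below that of controls in *H2-Q8*, *Capg*, the joint symbol *Gm17757,Gm18853* and *F13a1*. *Capg*, an actin-capping protein, had 410 in Ly6Clo and 701 in Ly6Chi monocytes of deficient mice, a ratio of 0.77. In controls it had 25.6 and 684, a ratio of 4.69, so that the control Ly6Clo library alone was low. *Ms4a8a* had 14.8 and 42.7 in deficient and 1.51 and 64.8 in control mice, with ratios of 1.47 and 4.71. *Ccr2* and *Ly6c2* were the seventh and the eighth of this ranking, at -3.17 and -3.07 relative to controls. In the other direction, *Hba-a2*, *Gjb2*, *Cited4* and *Dusp16* led. *Dusp16*, a phosphatase acting on MAP kinases, had 28.9 and 11.9 in deficient mice, a ratio of -1.21, and 107 and 4.33 in controls, a ratio of -4.33. *Cited4*, a transcriptional co-activator, had 2.96 and 9.20 in deficient and 13.5 and 2.82 in control mice, and its ratio in deficient mice was 1.37, or 0.90 after subtraction of the GC trend. *Hba-a2*, an alpha-globin gene, had 89.4 and 183 in deficient and 1171 and 113 in control mice, and its ratio of 1.02 in deficient mice was 0.71 after that subtraction. *Cd300e* and *Nr4a1* were also among the 10 of this direction, at 3.03 and 2.99 relative to controls. Opposite differences of at least 2-fold in both genotypes were found in 22 of the 10236 genes, 13 higher and 9 lower in Ly6Chi monocytes of deficient mice, or 0.215% in all.

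**Figure D3:**
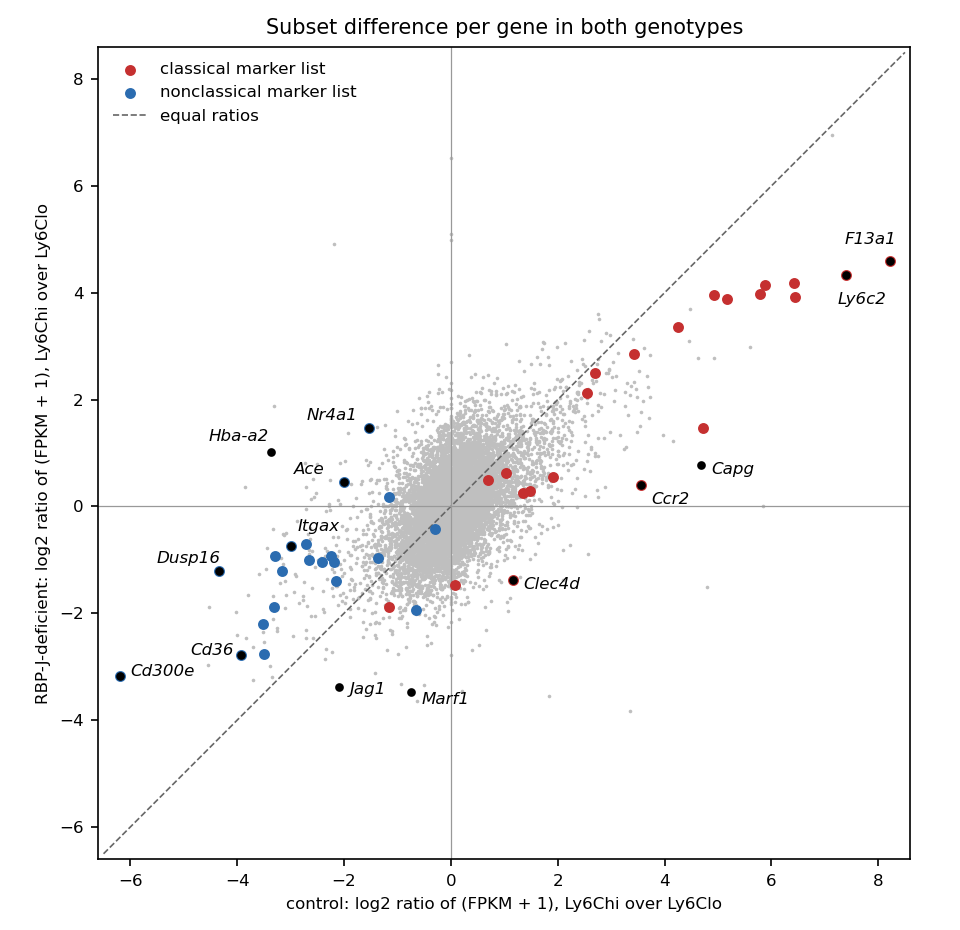
Log2 ratio of (FPKM + 1), Ly6Chi over Ly6Clo, in control (horizontal) and RBP-J-deficient (vertical) monocytes, with 1 point per gene for the 10236 genes, classical markers in red, nonclassical markers in blue and the genes that are named in black. All 22 classical markers lie below the dashed line of equal ratios, and 19 of the 21 nonclassical markers lie above it.

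Genes of the Notch pathway itself came next. Of 17 Notch receptor and cofactor genes at an FPKM of at least 1, 2 were at least 2-fold higher and 3 at least 2-fold lower in Ly6Chi monocytes of deficient mice, with a median of 0.17. Over all genes 11.1% were higher and 8.84% lower, so the list as a whole hardly stood out. *Notch2*, the main Notch receptor of monocytes, had 732 in Ly6Clo and 161 in Ly6Chi monocytes of deficient mice, a ratio of -2.18. In controls it had 126 and 70.3, a ratio of -0.83. The deficient Ly6Clo library was the highest of the 4. *Maml2*, a co-activator that joins the Notch and RBP-J complex, had 26.1 and 5.06, a ratio of -2.16, and *Adam10*, the protease that makes the first Notch cut, had 187 and 63.8, a ratio of -1.53. In controls these had ratios of -1.64 and -0.20. *Notch1* was on the other side with 0.562 and 2.13, a ratio that was 0.68 after subtraction of the GC trend, and *Notch3* was listed at 0 in both libraries.

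Of 17 Notch target genes 7 were expressed, of which 1 was at least 2-fold higher and 1 at least 2-fold lower. These counts are too small to set against the shares over all genes. *Hes1*, the best known direct target, had 11.7 in Ly6Clo and 14.1 in Ly6Chi monocytes of deficient mice, a ratio of 0.25, and 238 and 40.5 in controls, a ratio of -2.53. Both deficient libraries lay below both control libraries, and the subset difference of the control pair was absent from the deficient pair. *Nrarp*, a feedback inhibitor of Notch, was listed at 0 in Ly6Clo and had 0.767 in Ly6Chi monocytes of deficient mice, against 10.3 and 0.716 in controls. The exceptions in the list were *Hes6*, with 15.8 and 52.9 and a ratio of 1.68, and *Cdkn1a*, a cell cycle inhibitor, with 111 and 48.1 and a ratio of -1.19.

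Among 26 expressed monocyte transcription factors, 7 were at least 2-fold higher and 4 at least 2-fold lower in Ly6Chi monocytes of deficient mice. The 4 lower ones were *Cebpb*, *Tcf7l2*, *Klf4* and *Klf2*. *Cebpb*, which is needed for Ly6Clo monocytes, had 43.5 in Ly6Clo and 10.6 in Ly6Chi monocytes, a ratio of -1.94, against 36.3 and 22.8 in controls. *Tcf7l2*, a factor of the Wnt pathway, had 171 and 52.8, a ratio of -1.68. *Klf4* had 94.5 and 39.2 and *Klf2* had 118 and 54.8, and the ratio of *Klf2* rescaled to TPM was -0.88. So the 4 factors stayed on the Ly6Clo side, where *Nr4a1* did not. The 7 higher ones included *Cebpa*, with 5.15 and 18.4, *Cebpe*, with 0.572 and 11.5, and *Batf3*, with 20.4 and 55.4. *Spi1*, which encodes PU.1, had 211 and 442 in deficient and 903 and 851 in control mice, and its ratio of 1.06 was 0.71 after subtraction of the GC trend. *Irf8* had 48.2 and 92.9, a ratio of 0.93. *Csf1r*, the receptor for the growth factor that maintains monocytes, had 158 and 213 in deficient and 407 and 307 in control mice, with ratios of 0.43 and -0.41. The deficient libraries were the lower 2 of the 4 in *Csf1r*.

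In the *Bcl2* family, 2 of 15 expressed genes were at least 2-fold higher and 3 at least 2-fold lower in Ly6Chi monocytes of deficient mice. The 3 were *Bcl2a1a*, *Bcl2a1b* and *Bcl2a1d*, near-identical copies of the pro-survival gene A1 on chromosome 9 between which reads may be split. Their levels were 442, 878 and 916 in Ly6Clo and 86.2, 159 and 157 in Ly6Chi monocytes of deficient mice, with ratios of -2.35, -2.46 and -2.54. In controls their ratios were -3.53, -3.83 and -3.49. *Bcl2*, another pro-survival gene, had 14.8 and 6.94 in deficient and 31.7 and 4.18 in control mice. *Bad*, a pro-death member, was on the Ly6Chi side, with 6.62 and 62.3 and a ratio of 3.05. The pro-survival A1 copies and the pro-death gene *Bad* stood on opposite sides, but the family was not divided by function. The pro-death gene *Bbc3*, at 1.10, was on the side of *Bad*. The pro-death gene *Bmf*, at -0.92, and the pro-survival gene *Bcl2l1*, at 0.64, went the other way.

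The letters GTGGGAA, which RBP-J binds, were searched on both strands in the 250 bases before each gene's start, in RefSeq promoters of GRCm38.p6. They were found in 5 of the 31 promoters available for the 44 lower genes (16.1%), in 2 of the 42 available for the 61 higher genes (4.76%), in 5.21% of 7389 promoters of the genes compared and in 5.41% of all 27025 promoters. Of the 5, 3 were the A1 copies, whose sequences are the same or nearly so, which leaves 3 independent sequences. The matches are shown as the 30 bases around them because these are genes with a large subset difference in the absence of RBP-J. The promoter's own strand is printed and capitals mark the match, which lies on the opposite strand and so reads TTCCCAC.
Bcl2a1a: agggcctctagTTCCCACctacttagaggg
Bcl2a1b: agggcctctagTTCCCACctacttagaggg
Bcl2a1d: agagcctctagTTCCCACctacttagaggg
Clec4b1: caatttcctctTTCCCACatccttaaatca
The windows lie at chr9:88956730-88956759 (plus strand), chr9:89199039-89199068 (plus strand), chr9:88732005-88732034 (minus strand) and chr6:123049890-123049919 (plus strand) of GRCm38, and the matches begin 179, 223, 173 and 61 bases before the start of the gene. The fifth was *Snhg9*, a small RNA host gene that was listed at 0 in the deficient Ly6Chi library and had 13.1 in Ly6Clo. A match is no evidence of binding. The letters AAAGGTCA, bound by NR4A1, were in 1 of the 31 and none of the 42 promoters, against 0.866% of the genes compared, and TTGCNNAA, a core of C/EBP sites, in 2 of 31 (6.45%) and 6 of 42 (14.3%), against 7.59%.

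Most genes of MHC class II presentation were on the Ly6Chi side, with 9 higher and 4 lower in Ly6Chi. The 4 were *H2-Ob*, *Ctss*, *Cd80* and *Cd86*, with ratios of -0.75, -0.33, -0.14 and -0.07. Of 13 expressed genes of MHC class II presentation, 7 were at least 2-fold higher in Ly6Chi monocytes of deficient mice and none at least 2-fold lower, with a median ratio of 1.22, against 0.78 in controls. After subtraction of the GC trend the count was 6 and the median 0.97, and with a pseudocount of 5 the median was 0.54. *H2-Aa* had an FPKM of 90.3 in Ly6Clo and 416 in Ly6Chi monocytes, a ratio of 2.19, and *H2-Ab1*, its partner chain, had 513 and 1572, a ratio of 1.61. The peptide-loading gene *H2-DMb1* had 41.4 and 166. The chains differed by more than the invariant chain gene *Cd74*, which had 5062 and 5984, a ratio of 0.24. *Ciita*, the master activator of these genes, was low, with 0.127 and 2.44. For *H2-Aa* and *H2-Ab1* the deficient Ly6Clo library was the lowest of the 4. The 7 expressed dendritic cell genes were also all at least 2-fold higher in Ly6Chi. The sum of their list was 66.2 in Ly6Clo and 273 in Ly6Chi monocytes of deficient mice, and *Flt3*, the growth factor receptor of dendritic cell precursors, had 0.280 and 5.32. *Siglech* was listed at 0 in both, and *Xcr1* and *Zbtb46*, which mark conventional dendritic cells, stayed under 1. The part of dendritic cells in the difference of MHC class II genes was not tested.

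Interferon-stimulated genes showed the same side. All 30 were expressed, of which 15 were at least 2-fold higher in Ly6Chi monocytes of deficient mice and none at least 2-fold lower. The median was 1.02 in deficient mice and 1.29 in controls, and in deficient mice it was 0.91 after subtraction of the GC trend. The antiviral gene *Oasl1* had 0.324 in Ly6Clo and 7.44 in Ly6Chi monocytes, a ratio of 2.67. *Ifit1* had 9.40 and 43.5, and the interferon regulator *Irf7* had 23.5 and 100.4. The exceptions were 4 genes lower in Ly6Chi, all within 2-fold. Among them were *Gbp2*, with the lowest ratio of the list, -0.69, and *Ifitm3*, at 7487 and 5442 with a ratio of -0.46. *Ifitm3* encodes a membrane restriction factor, and *Bst2*, which encodes another, had a ratio of 0.40. Of 12 expressed chemokine ligands, 6 were at least 2-fold higher and none lower. *Ccl2*, the ligand of CCR2, had 1.94 and 15.01, a ratio of 2.45, and the interferon-induced *Cxcl10* had 2.57 and 16.1, a ratio of 2.26. *Pf4* and *Ppbp*, counted in this list, are platelet genes.

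Granule and antimicrobial genes had a median ratio of 2.24 over 15 expressed members, of which 10 were at least 2-fold higher and 2 at least 2-fold lower in Ly6Chi monocytes of deficient mice. *Plac8* had 1286 in Ly6Clo and 6024 in Ly6Chi monocytes, and *Wfdc17* had 1313 and 6041. The protease inhibitor *Slpi* had 33.3 and 161. *Padi4*, which converts arginine to citrulline in proteins, had 0.785 and 14.2, and *Ctsg*, an azurophil granule protease, was listed at 0 in Ly6Clo and had 5.23 in Ly6Chi. *Camp* and *Ngp*, secondary granule genes, had 5.52 and 4.87 in Ly6Chi monocytes of deficient mice and were listed at 0 in both control libraries. *Lyz1*, on the other side, had 3286 and 952, a ratio of -1.79, against 985 and 1227 in controls, and it is a near copy of *Lyz2*. Of the 13 neutrophil genes found, 10 were expressed and 6 at least 2-fold higher, and their sum was 172 in Ly6Clo and 1080 in Ly6Chi monocytes of deficient mice and 270 and 1390 in controls. *S100a8*, which monocytes also express, made up most of it, with 126 and 861. Of the 10, 9 were higher in Ly6Chi, with a median ratio of 1.88, and *Ltf* and *Cxcr1*, also in the list, were at 0 in both deficient libraries. The part of neutrophils in the difference of granule genes was not tested. Of the other S100 and annexin genes, *S100a4* and *S100a10* were at least 2-fold higher in Ly6Chi, whereas *Anxa5*, *Anxa4* and *S100a6* had ratios of 0.05, 0.08 and 0.48, against 1.15, 1.12 and 1.87 in controls. The list had a median of 0.60 in deficient and 1.42 in control mice.

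Pattern recognition receptors differed among themselves. Of 19 expressed, 5 were at least 2-fold lower in Ly6Chi monocytes of deficient mice and 1 at least 2-fold higher, and the sign of the list's median, -0.24, turned to 0.12 after subtraction of the GC trend. The 5 were formyl peptide receptors and C-type lectins. *Fpr1* had an FPKM of 370 in Ly6Clo and 67.7 in Ly6Chi monocytes, a ratio of -2.43, and *Fpr2*, its neighbour on chromosome 17, had 122 and 29.4, a ratio of -2.01. In controls *Fpr1* had 59.5 and 6.82 and *Fpr2* 27.8 and 17.3. *Clec4n*, next to *Clec4d* and *Clec4e* on chromosome 6, had 63.9 and 25.4, a ratio of -1.30. *Clec4b1*, *Clec4d*, *Clec4e* and *Clec4n* were thus all higher in the deficient Ly6Clo library than in each of the other 3 libraries. The Toll-like receptor genes stayed within 2-fold, with *Tlr7* at 85.2 and 97.4 and *Tlr2* at 44.2 and 56.1, and only the adaptor *Myd88* reached 2-fold, with 50.8 and 123.

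Lipid genes were split, with 5 of 27 at least 2-fold higher and 7 at least 2-fold lower. The 7 lower included *Cd36*, *Pparg*, *Fabp4*, *Abcg1*, *Apoe* and *Apoc2*. *Fabp4*, a fatty acid carrier induced by PPAR-gamma, had 343 in Ly6Clo and 63.7 in Ly6Chi monocytes of deficient mice, a ratio of -2.41. *Abcg1*, a cholesterol exporter, had 743 and 161, a ratio of -2.20, against 227 and 79.0 in controls, and *Apoe* had 18305 and 6801, a ratio of -1.43. These 6 lipid-handling genes were also at least 2-fold lower in controls. The synthesis regulator *Srebf2* had 2.15 and 5.25, and *Scarb1*, the HDL receptor, had 9.09 and 26.6. Glycolysis genes had 6 of 20 at least 2-fold higher and none lower, with the pyruvate kinase gene *Pkm* at 160 and 426, and their median of 0.19 turned to -0.02 after subtraction of the GC trend.

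Immediate early genes, which respond within minutes to stimulation and handling, had 7 of 20 at least 2-fold higher and 2 lower in Ly6Chi monocytes of deficient mice. *Junb* had 18.6 in Ly6Clo and 123 in Ly6Chi monocytes, a ratio of 2.66, and 146 and 468 in controls. *Fos* had 196 and 510, a ratio of 1.38, and *Egr1* had 0.903 and 6.01. *Nr4a1*, itself an immediate early gene, was on the same side as *Junb* and *Fos* in deficient mice, and on the opposite side in controls, where *Junb* and *Fos* had ratios of 1.68 and 1.67. Of the cell cycle genes, *Mki67*, at 0.492 and 0.277, and *Top2a*, at 0.554 and 0.351, were low in both deficient libraries. Others were not, and the sum of the list was 255 in Ly6Clo and 219 in Ly6Chi monocytes. Of 19 expressed, 4 were at least 2-fold higher and 5 lower.

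Among 21 expressed integrin and adhesion genes, 5 were at least 2-fold higher and 1, *Pecam1*, lower. The integrin partners *Itgal* and *Itgb2*, which form LFA-1, had 74.2 and 83.6 and 674 and 608, and *Itgam* had 51.5 and 63.7. In controls *Itgal* had 210 and 93.6, so the deficient libraries lacked its excess in Ly6Clo. Of 26 cytoskeletal genes, 3 were at least 2-fold higher, a share near the 11.1% over all genes, and none lower. The actin-severing *Gsn* had 14.2 and 64.2, and after subtraction of the GC trend 1 gene was higher and 1 lower. Of 9 expressed chemokine receptors, 2 were at least 2-fold higher, *Ccr1* and *Cxcr3*, and 1 was lower, *S1pr5*, which guides exit from the marrow, with 54.7 and 24.4. *Cxcr3* had low values, and its ratio of 1.56 was 0.47 with a pseudocount of 5. Of 11 Fc receptor and signalling genes, *Fcgr4* and *Fcgrt* were at least 2-fold lower and none was higher, and the median of -0.16 was 0.06 after subtraction of the GC trend. Of 25 expressed cytokine and receptor genes, 4 were at least 2-fold higher and 2 lower. *Il1b* had 329 and 93.5, a ratio of -1.80, and *Csf3r*, the G-CSF receptor, had 6.50 and 28.0, a ratio of 1.95. *Il27*, an immune cytokine subunit, had 5.96 and 22.9, a ratio of 1.78, and in controls 35.9 and 17.4. Of 13 complement genes, 3 were at least 2-fold higher and 1 lower, and after subtraction of the GC trend 1 was higher and none lower, with a median of 0.01 in place of -0.34.

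**Figure D4:**
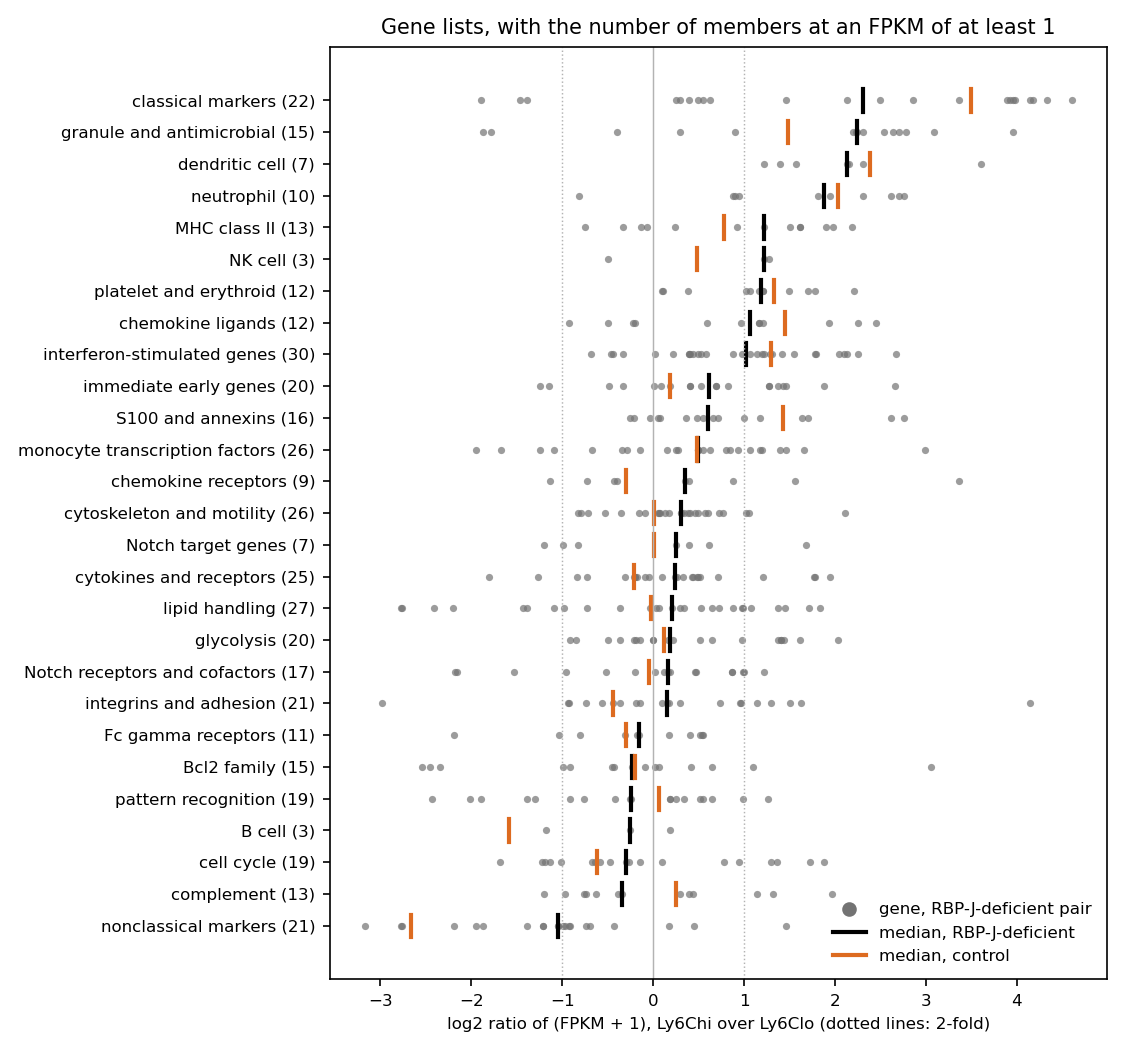
Log2 ratios of (FPKM + 1), Ly6Chi over Ly6Clo, of list members at an FPKM of at least 1 in RBP-J-deficient monocytes (grey points, 1 per gene), with the median of each list in deficient (black) and control (orange) mice, for lists with at least 3 such members and their number in brackets. Classical markers have the highest median, 2.31, and nonclassical markers the lowest, -1.04, both closer to 0 than in controls.

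Markers of other blood cells were examined in the deficient pair. None of 13 T cell genes reached an FPKM of 1. Of 10 B cell genes found 3 were expressed, and *Ms4a1* stayed under 1 in both libraries. *Cd79b*, with 100.2 and 43.7, was the exception. Of 12 NK cell genes 3 were expressed, with 2 at least 2-fold higher, and *Prf1* and *Eomes* were listed at 0 in both. Of 11 eosinophil and basophil genes found, *Ear1* alone was expressed, with 27.8 and 12.8. Of 12 expressed platelet and erythroid genes, counted as 1 list, 9 were at least 2-fold higher in Ly6Chi, or 6 after subtraction of the GC trend. In controls 8 of 12 were at least 2-fold higher, and the medians were 1.19 in deficient and 1.33 in control mice. Their sum was 404 and 697, against 1715 and 741 in controls, and without *Hba-a2* it was 315 and 515, against 545 and 628. *Gp5*, a platelet surface protein, had 1.24 and 9.33. The beta-globin genes *Hbb-bs* and *Hbb-bt* were nearly equal in the deficient pair, with ratios of 0.11 and 0.10. The erythroid gene *Alas2* had a ratio of 1.07, or 0.91 after subtraction of the GC trend. The platelet gene *Gp1ba*, at 0.39, was also within 2-fold. The part of platelets in these values was not tested.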

How the data were processed

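RNA of sorted blood monocytes was sequenced with paired ends on an Illumina HiSeq2500, 1 library for each of 4 groups. The authors deposited FPKM values for all 6 pairs of libraries, and the submitters' processing notes name CASAVA 1.8, TopHat2 2.1.0, Cufflinks 2.2.1 and the build mm10, without the role of each. FPKM depends on the other genes of a library, so a few abundant genes can shift all ratios. The deposited log2 fold change, test statistic, p-value and q-value columns hold the authors' own comparisons and were not used. Within each genotype, (FPKM + 1) in Ly6Chi was divided by that in Ly6Clo and put on the log2 scale, with symbols on 2 lines summed. Genes needed an FPKM of at least 1 in either library and a status other than failed, which removed 4 symbols from the deficient pair, among them Actb. The table holds 25 symbols turned into dates by a spreadsheet, and 105 joint symbols.

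Genes named are the 4 markers, Rbpj, Lyz2, Csf1r, Itgax, Cx3cr1, Cebpb, list members, the 15 largest ratios in each direction (above 0 in both libraries, at least 5 in the higher, no failed estimate or small RNA) and the 10 largest differences between genotypes in each direction. A few genes were named after their values were seen, and some genes are not reported here. The members and lists were chosen with earlier results of these data known. The GC trend is a lowess fit (fraction 0.3, 3 iterations) on the GC content of GENCODE transcripts, over genes whose mean FPKM reached 5. Promoters are RefSeq's (GRCm38.p6, the assembly of mm10). No p-value was computed. Calling and GC correction were tested on simulated data, with large changes planted in well-expressed genes and little noise. That checks the code and says nothing about calls among genes with low values. Alternatives covered pseudocounts, TPM, GC correction, centring, filters, thresholds and the treatment of failed, repeated and small RNA symbols. Python 3.11.15, numpy 2.4.6, pandas 2.3.3, statsmodels 0.14.6 and matplotlib 3.10.9 were used.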

Additional observations from a re-analysis of the deposited data

Results flagged for a closer look

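A total of 7 genes named in the lists or rankings had a difference of at least 2-fold in one direction in RBP-J-deficient mice and of at least 2-fold in the other direction in controls. With 1 library per group the difference between the genotypes was not tested in any of them. The log2 ratio of (FPKM + 1), Ly6Chi over Ly6Clo, was 1.46 in deficient and -1.53 in control mice for *Nr4a1*, the nuclear receptor gene. Flow cytometry and quantitative PCR in the study gave similar *Nr4a1* levels for Ly6Clo monocytes of both genotypes. The ratio was -1.39 and 1.16 for the lectin receptor gene *Clec4d*, and 1.37 and -1.93 for *Cited4*, a co-activator. *Il27* had 1.78 and -1.003, the latter at the 2-fold limit. *H2-Q8* had -3.55 and 1.84 and belongs to a family of near-identical genes. Its second entry, the joint symbol *H2-Q6,H2-Q8*, had 0.37 in deficient mice. *C1qa*, a complement gene, had 1.32 and -1.05 and was listed at 0 in the deficient Ly6Clo library. *Hba-a2* had 1.02 and -3.36, next to a sum of the other platelet and erythroid genes of 315 in Ly6Clo and 515 in Ly6Chi monocytes of deficient mice and of 545 and 628 in controls. With the GC correction, 3 of the 7 were below 2-fold in deficient mice, *C1qa* at 0.96, *Cited4* at 0.90 and *Hba-a2* at 0.71. The part of red cell RNA in the values of *Hba-a2* was not tested.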

How the results depend on the processing

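No paired analysis was possible because each group is 1 library, and for the same reason no replicate could be left out. No difference of 2-fold or more reversed its direction under the alternatives run. For single genes this says little, because a pseudocount cannot turn the sign of a ratio. TPM shifted the median ratio of the deficient pair by only 0.19, and centring removed a median of -0.03. Of values within 2-fold, 60 for 48 single genes and 12 for 7 list medians changed sign. These lists were Notch receptors and cofactors, integrins and adhesion and chemokine receptors under filters on FPKM, Fc receptors under TPM and the GC correction, glycolysis under the GC correction, and pattern recognition and complement under the GC correction and under another filter on FPKM. The counts at the fold thresholds depended on the settings, and the cause was not tested beyond what a setting itself does, such as leaving fewer genes. The 61 higher and 44 lower genes of deficient mice became 327 and 194 with a pseudocount of 0.1, 22 and 18 with 5, 29 and 26 with an FPKM of at least 1 in every library compared, 35 and 26 with a mean FPKM of at least 10, 161 and 79 at 4-fold, and 1083 and 860 at 2-fold, and rescaling to TPM gave 92 higher. The 102 higher and 88 lower genes of controls became 284 and 197 with a pseudocount of 0.1, 34 and 43 with 5, and 794 and 533 at 2-fold, and the higher ones 57, 62 and 198 under the FPKM filter, the mean filter and 4-fold. The 33 genes higher in both genotypes became 135, 12, 14, 21, 84 and 396 with pseudocounts of 0.1 and 5, the FPKM filter, the mean filter, 4-fold and 2-fold. The 18 lower in both became 55 and 11 with pseudocounts of 0.1 and 5, 11 with the GC correction, 9 at 5.7-fold either way and 215 at 2-fold. The median of the nonclassical markers, -1.04, was -0.9999 with a pseudocount of 5 and -0.83 rescaled to TPM, both short of 2-fold. Of 84 counts under alternatives 51 stayed within 1.5 times, and of 223 list medians 200 and of 2125 values of single genes 1958 stayed on their side of 2-fold. Read counts were not used here, so counting error is not known for any value.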
